A study of Mus musculus with 24 samples.

Results

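Cholesterol synthesis and the genes switched on by the transcription factor SREBP2 were described through 28 genes in brain and liver of diabetic and control mice. The 28 were taken by gene symbol, as a set of genes known for this pathway, and each was found among the 55797 gene names of the count files. By role they are 5 enzymes of the mevalonate steps, 3 of the isoprenoid units, 3 of the squalene steps, 9 of the sterol steps, 4 regulators and 4 genes of sterol handling. RNA came from male C57/BL6 mice, for which the labels enter 16 weeks as treatment, and was sequenced in 24 libraries. Each tissue had 6 libraries from db/db mice, in which the leptin receptor is defective throughout the body, and 6 from db/+ mice, which keep 1 working copy of the receptor gene. Within a genotype, 2 libraries came from mice given water, 2 from mice given sucrose and 2 from mice given brazzein, a sweet-tasting protein that the series' design calls 3M-Brazzein. All groups share sex and strain. Tissue, genotype, drink and replicate follow the sample titles; a second genotype field in the labels reads db/+ for every brain and db/db for every liver, against the title in 12 samples. The labels do not say that replicates are separate animals, so p-values here measure only the spread between these samples, which may be technical, and they do not name a brain region.

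Cells build cholesterol from acetyl-CoA through mevalonate, isoprenoid units, squalene and lanosterol, and the isoprenoid units also feed ubiquinone, dolichol and the lipid tails of proteins. SREBP2 is made as a membrane protein that SCAP carries out of the endoplasmic reticulum when sterols are scarce; INSIG proteins hold it back when sterols are plentiful, and the freed part of SREBP2 switches on nearly every enzyme of the pathway. The liver makes cholesterol for lipoproteins and bile, whereas the brain makes its own, much of it for myelin and much of it in astrocytes.

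The promoters of 6 members are shown to set 5 called genes beside 1 that was not called: in liver, Hmgcs1, Idi1, Nsdhl, Cyp51 and Acat2 were higher in db/db, and Ebp, the most abundant member in liver per length, was not. Each is the 250 bases before the annotated start, 5′ to 3′ on the gene's strand, from RefSeq (GRCm38.p6). They lie on chr13:119690101-119690350 for Hmgcs1 (plus strand), chr13:8885356-8885605 for Idi1 (plus), chrX:72918271-72918520 for Nsdhl (plus), chr5:4104698-4104947 for Cyp51 (minus), chr17:12960726-12960975 for Acat2 (minus) and chrX:8193513-8193762 for Ebp (minus). Capitals mark the CCAAT box, the Sp1 box and the sterol regulatory element on either strand, whose letters follow the sequences.
Hmgcs1: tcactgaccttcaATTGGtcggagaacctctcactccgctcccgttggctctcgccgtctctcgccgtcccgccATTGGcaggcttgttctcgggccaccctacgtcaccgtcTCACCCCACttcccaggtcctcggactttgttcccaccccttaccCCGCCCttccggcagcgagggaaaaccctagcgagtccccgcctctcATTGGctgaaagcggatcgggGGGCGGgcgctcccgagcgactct
Idi1: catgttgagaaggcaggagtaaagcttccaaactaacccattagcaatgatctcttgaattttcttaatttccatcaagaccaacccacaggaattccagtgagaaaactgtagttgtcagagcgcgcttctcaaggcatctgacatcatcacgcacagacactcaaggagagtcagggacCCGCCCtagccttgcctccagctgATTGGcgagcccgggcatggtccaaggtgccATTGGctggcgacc
Nsdhl: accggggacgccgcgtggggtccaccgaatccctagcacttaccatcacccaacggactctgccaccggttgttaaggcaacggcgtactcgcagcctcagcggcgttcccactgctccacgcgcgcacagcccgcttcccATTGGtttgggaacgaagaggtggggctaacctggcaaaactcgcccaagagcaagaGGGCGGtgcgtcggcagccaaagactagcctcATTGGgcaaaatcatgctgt
Cyp51: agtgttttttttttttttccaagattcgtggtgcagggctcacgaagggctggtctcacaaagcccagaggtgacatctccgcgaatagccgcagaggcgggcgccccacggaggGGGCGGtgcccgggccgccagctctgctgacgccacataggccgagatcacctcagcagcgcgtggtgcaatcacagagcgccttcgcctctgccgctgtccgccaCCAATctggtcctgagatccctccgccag
Acat2: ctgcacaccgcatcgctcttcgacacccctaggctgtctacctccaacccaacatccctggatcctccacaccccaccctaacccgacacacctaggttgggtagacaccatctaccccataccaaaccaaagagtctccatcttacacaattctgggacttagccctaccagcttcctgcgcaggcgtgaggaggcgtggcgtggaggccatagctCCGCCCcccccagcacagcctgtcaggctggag
Ebp: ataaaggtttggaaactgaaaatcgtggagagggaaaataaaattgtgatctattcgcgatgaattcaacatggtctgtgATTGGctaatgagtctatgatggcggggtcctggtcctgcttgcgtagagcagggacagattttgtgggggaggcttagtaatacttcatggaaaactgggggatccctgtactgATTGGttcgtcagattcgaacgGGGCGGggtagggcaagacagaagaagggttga

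Motifs were searched as exact letters on both strands, and in the sequences shown no match shares bases with another: the CCAAT box as CCAAT, the Sp1 box as GGGCGG, the sterol regulatory element as TCACNCCAC and the E-box as CACGTG. A match is a description of the sequence only. RefSeq promoters were found for 22 of the 28 members. CCAAT stood in 20 of the 22, against 37.49% of 27025 genes in the table, and GGGCGG also stood in 20 of the 22, against 35.36%. TCACNCCAC stood in 1 of the 22, Hmgcs1, against 1.225%, and the E-box CACGTG in 5 of the 22, against 6.86%. A gene with several annotated starts was counted if any of them matched, for members and for all genes. Dhcr7 and Insig2 have 3 starts, and Pmvk and Scap have 2. Dhcr7 and Scap are among the members with an E-box. Acat2 and Scap were the 2 members in the table with no CCAAT. Among members called higher in db/db liver and the other members, CCAAT stood in 7 of 8 and 13 of 14, GGGCGG in 7 of 8 and 13 of 14, TCACNCCAC in 1 of 8 and 0 of 14, and CACGTG in 0 of 8 and 5 of 14. These shares were not tested against each other.

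Each liver library held 60384569 to 79385804 estimated counts and each brain library 58287665 to 77772849. Replicates were less alike in liver, where Pearson's r between the pair of a group was 0.922 to 0.967 over genes, than in brain, where it was 0.981 to 0.983. Liver libraries also each held 46 to 583 genes listed at under 10% of their median over the tissue, against 19 to 62 in brain. Among members this touched Dhcr7 in 3 liver libraries, Mvd in 3, and Hsd17b7, Insig2 and Stard4 in 1 each, and none in brain. The leptin receptor gene Lepr measured 1.901 to 18.9 CPM in db/+ and 0.6905 to 2.504 in db/db liver, and 3.13 to 3.87 and 2.004 to 2.77 in brain, with no overlap in brain; the liver difference was called and the brain difference was not (adjusted p = 0.00788 and 0.157). Gene totals do not separate its isoforms, so they do not check the db allele itself. Hepatocyte markers marked the livers (5 genes summing to 58797 to 91227 CPM) and neuron markers the brains (5 genes summing to 5240 to 5561 CPM). All values below are CPM (counts scaled by TMM-adjusted library size), unless FPKM is named, and a gene is called at an adjusted p under 0.05 over all genes (edgeR quasi-likelihood test, Benjamini-Hochberg).

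In liver, 7 of the 11 genes of the mevalonate, isoprenoid and squalene steps rose in db/db over db/+ mice, beside 2 later enzymes and Npc2. Of the 28 members, 10 were called higher and 0 lower over the 3 drinks, where 7.91% of 19352 liver genes were called higher and 7.27% lower. The 10 were Acat2, Hmgcs1, Pmvk, Idi1, Fdps, Sqle, Lss, Cyp51, Nsdhl and Npc2, with folds from 1.53 to 4.57. The log2 difference was above 0 for 22 members and below 0 for 6, with a median of 0.60 against -0.03 over all genes. All 6 db/db livers exceeded all 6 db/+ livers for 6 members, Acat2, Hmgcs1, Idi1, Fdps, Sqle and Nsdhl, against 4.91% of all liver genes, and 0 did the reverse, against 3.51%. DESeq2 called the same 10 and Mvd, Msmo1, Sc5d and Insig2, 14 in all, with 10.9% of genes called higher. Each of the 10 calls was made again in all 12 fits that left out 1 liver library. Bulk tissue RNA cannot tell fewer cells of a type from less RNA per cell.

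**Figure D1:**
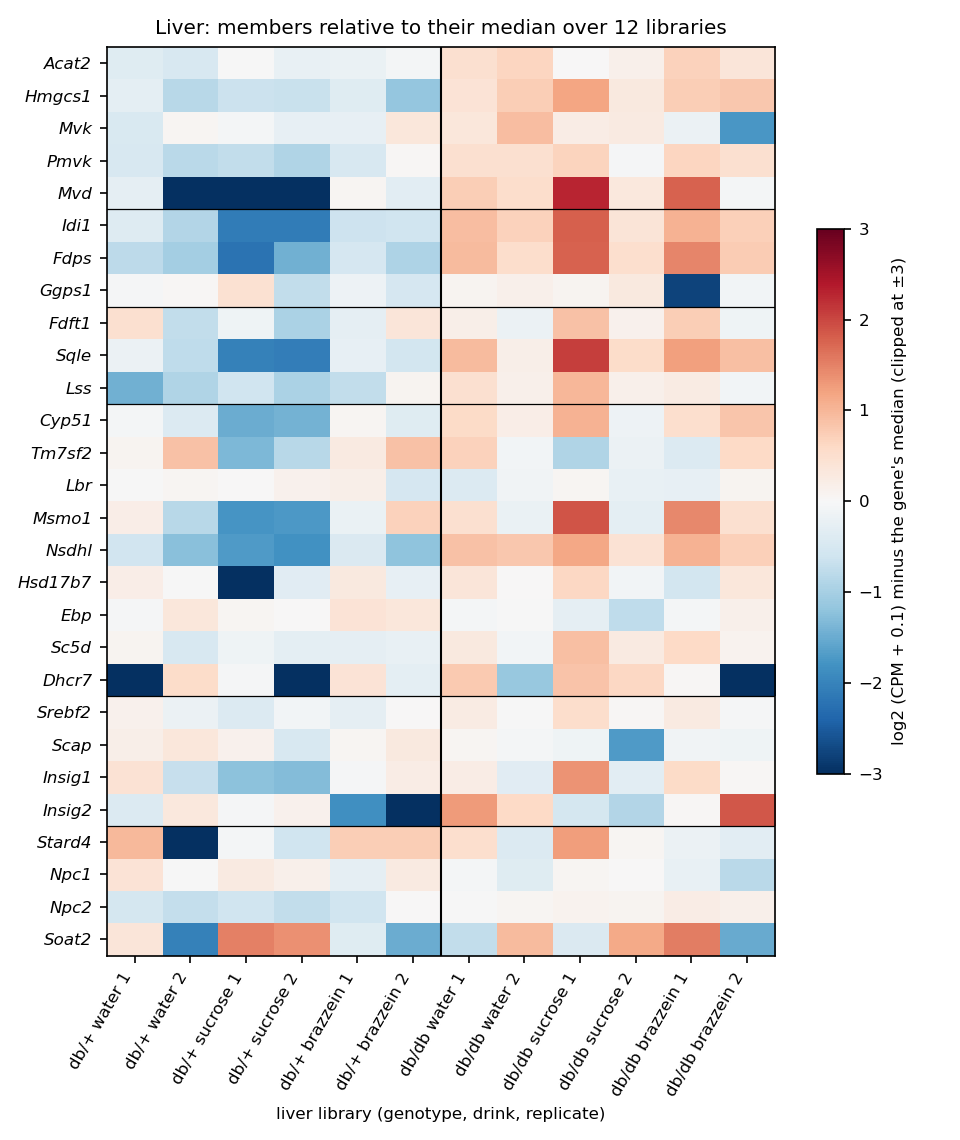
Each row is a member and each column a liver library; colour is log2 of CPM plus 0.1, minus the gene's median over the 12 libraries, clipped at 3 either way. Acat2, Hmgcs1, Idi1, Fdps, Sqle and Nsdhl are above their median in all 6 db/db livers and below it in all 6 db/+ livers. These are the members whose genotypes did not overlap.

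The mevalonate steps turn acetyl-CoA into isopentenyl pyrophosphate, and 3 of their 5 enzymes were called higher. Hmgcs1 encodes the synthase that makes HMG-CoA. Its db/+ livers measured 101 and 70.1 (water), 78.9 and 78.2 (sucrose), 96.9 and 55.3 (brazzein), and its db/db livers 164 and 208 (water), 283 and 153 (sucrose), 207 and 216 (brazzein) CPM. Every db/db value lay above every db/+ value, 2.56-fold on average, a log2 difference of 1.36 (SE 0.20, adjusted p = 0.005796). Acat2, the cytosolic thiolase that joins 2 acetyl-CoA and not the ester-forming enzyme Soat2, measured 52.3 and 48.3 (water), 66.6 and 57.03 (sucrose), 58.1 and 64.5 (brazzein) in db/+. In db/db it measured 93.7 and 105 (water), 67.6 and 74.1 (sucrose), 108 and 85.8 (brazzein) CPM. The groups did not overlap, but the lowest db/db library, on sucrose, stood next to the highest db/+ library, also on sucrose; the log2 difference was 0.61 (SE 0.09, adjusted p = 0.00558). Pmvk, the phosphomevalonate kinase, measured 11.2 and 8.81 (water), 9.34 and 8.29 (sucrose), 11.2 and 16.001 (brazzein) in db/+ and 21.7 and 21.7 (water), 24.8 and 15.2 (sucrose), 24.4 and 21.7 (brazzein) CPM in db/db. One db/db sucrose library fell inside the db/+ range, and the log2 difference was 1.02 (SE 0.17, adjusted p = 0.00742).

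The other 2 enzymes of these steps were not called. Mvk, the mevalonate kinase, was among the lowest members, from 1.84 to 3.25 CPM (median 2.304) in db/+ and from 0.689 to 4.996 CPM (median 3.07) in db/db, with a log2 difference of 0.14 (SE 0.31, adjusted p = 0.807). Mvd, the mevalonate pyrophosphate decarboxylase, measured 3.05 and 0.0143 (water), 0.1902 and 0.2498 (sucrose), 3.91 and 2.97 (brazzein) in db/+ and 6.32 and 5.39 (water), 18.4 and 4.696 (sucrose), 12.99 and 3.55 (brazzein) CPM in db/db. Its 3 lowest values, in both db/+ sucrose livers and 1 db/+ water liver, came from 11, 18 and 1 counts. The log2 difference was 2.97 (SE 0.92, adjusted p = 0.0662); without db/+ water replicate 1 it was 5.16 (adjusted p = 0.0071) and without db/+ water replicate 2 it was 2.65 (adjusted p = 0.0289).

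Of the 3 enzymes of the isoprenoid units, 2 were called higher, with the largest log2 differences among the 10 called members. Idi1, the isomerase of isopentenyl pyrophosphate, measured 11.2 and 7.96 (water), 3.39 and 3.39 (sucrose), 9.61 and 9.69 (brazzein) in db/+ livers and 28.2 and 23.96 (water), 51.04 and 19.4 (sucrose), 30.2 and 24.2 (brazzein) CPM in db/db livers. The lowest values were those of both db/+ sucrose livers, and the groups did not overlap; the rise was 4.304-fold, a log2 difference of 2.11 (SE 0.24, adjusted p = 0.00217). Fdps, the synthase of farnesyl pyrophosphate, from which the sterol, ubiquinone and prenylation branches part, measured 34.7 and 29.3 (water), 12.7 and 21.997 (sucrose), 42.3 and 31.4 (brazzein) in db/+. In db/db it measured 116 and 86.2 (water), 206 and 84.8 (sucrose), 165 and 102 (brazzein) CPM, again without overlap. Its 4.57-fold rise was a log2 difference of 2.19 (SE 0.27, adjusted p = 0.00293). Ggps1, which lengthens farnesyl to geranylgeranyl pyrophosphate for protein prenylation, lay from 2.803 to 6.55 CPM (median 4.44) in db/+ and from 0.606 to 5.84 CPM (median 5.02) in db/db, and its log2 difference was -0.07 (SE 0.44, adjusted p = 0.941). In the mouse annotation at hand, 26.7% of the exon bases of Fdps also belong to a gene model on the same strand, Gm43738, so part of its count depends on how shared reads were assigned.

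The squalene steps commit the pathway to sterols, and 2 of 3 genes were called higher. Sqle, the squalene epoxidase and a rate-limiting step of sterol synthesis, measured 8.22 and 5.44 (water), 2.196 and 2.14 (sucrose), 7.84 and 6.28 (brazzein) in db/+ livers and 18.02 and 10.4 (water), 39.6 and 13.7 (sucrose), 21.7 and 17.5 (brazzein) CPM in db/db livers. The groups did not overlap, and the 4.14-fold rise was a log2 difference of 2.05 (SE 0.29, adjusted p = 0.00474). Lss, which closes the ring of lanosterol, measured 5.51 and 8.01 (water), 9.96 and 7.7996 (sucrose), 9.0005 and 16.1 (brazzein) in db/+ and 21.3 and 16.96 (water), 30.2 and 16.98 (sucrose), 17.9 and 14.3 (brazzein) CPM in db/db. One db/+ brazzein liver reached into the db/db range, and the log2 difference was 1.09 (SE 0.22, adjusted p = 0.0176). Fdft1, the squalene synthase between Fdps and Sqle, ran from 34.9 to 93.1 CPM (median 58.7) in db/+ and from 59.1 to 122 CPM (median 73.95) in db/db. Its log2 difference of 0.44 (SE 0.29, adjusted p = 0.351) was not called, unlike those of its neighbours in the pathway; whether the differences differ between genes was not tested. Of its annotated exon bases, 18.3% lie opposite exons of Ctsb on the other strand, so reads there cannot be told apart by gene.

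Of the 9 enzymes that turn lanosterol into cholesterol, 2 were called higher. Nsdhl, which works in the removal of the methyl groups at C4, measured 14.2 and 8.87 (water), 6.43 and 5.995 (sucrose), 15.8 and 9.101 (brazzein) in db/+ livers. In db/db livers it measured 38.9 and 37.5 (water), 47.7 and 28.7 (sucrose), 43.7 and 34.8 (brazzein) CPM. The lowest db/db liver lay well above the highest db/+ liver, and the 4.004-fold rise had the smallest adjusted p of the set, with a log2 difference of 2.001 (SE 0.21, adjusted p = 0.00156). Cyp51, the lanosterol demethylase, measured 33.4 and 26.3 (water), 12.4 and 13.03 (sucrose), 36.7 and 27.1 (brazzein) in db/+ and 52.1 and 40.3 (water), 72.3 and 31.6 (sucrose), 49.3 and 62.04 (brazzein) CPM in db/db. Its groups overlapped through 1 db/db sucrose liver, and the log2 difference was 1.15 (SE 0.21, adjusted p = 0.0125).

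The other 7 sterol enzymes did not pass the threshold. Msmo1, which starts the C4 demethylation that Nsdhl continues, ran from 9.44 to 51.9 CPM (median 23.03) in db/+ and from 26.1 to 119 CPM (median 45.04) in db/db, a log2 difference of 1.36 (SE 0.41, adjusted p = 0.0605). Sc5d, a late desaturase, ran from 122 to 180.4 CPM (median 144) and from 160.1 to 320.0 CPM (median 206), a log2 difference of 0.58 (SE 0.16, adjusted p = 0.0514). Its call sat at the edge of the threshold: it was called without db/+ water replicate 1, replicate 2 of db/db brazzein or replicate 2 of db/db sucrose (adjusted p = 0.0449, 0.0477 and 0.0460). Without db/db sucrose replicate 2, Msmo1 was called as well (adjusted p = 0.0287). Ebp, the sterol isomerase, ran from 152 to 205 CPM (median 177) and from 92.1 to 172 CPM (median 149), with a log2 difference of -0.35 (SE 0.11, adjusted p = 0.0607), and was called lower without db/db sucrose replicate 1 (-0.43, adjusted p = 0.0419). Tm7sf2 and Lbr, both sterol C14 reductases, had log2 differences of -0.02 (SE 0.27, adjusted p = 0.987) and -0.12 (SE 0.17, adjusted p = 0.676). Dhcr7, the last reductase on 1 of the routes, and Hsd17b7, the C4 ketoreductase, were listed near 0 in 3 livers and 1 liver, with log2 differences of 0.41 (SE 1.08, adjusted p = 0.844) and 0.56 (SE 0.89, adjusted p = 0.715). Hsd17b7 measured 0.0519 CPM in 1 db/+ sucrose liver and 26.6 or more in the other livers of that genotype; without the other library of that group, db/+ sucrose replicate 2, its log2 difference was 3.23 (adjusted p = 0.0035).

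**Figure D2:**
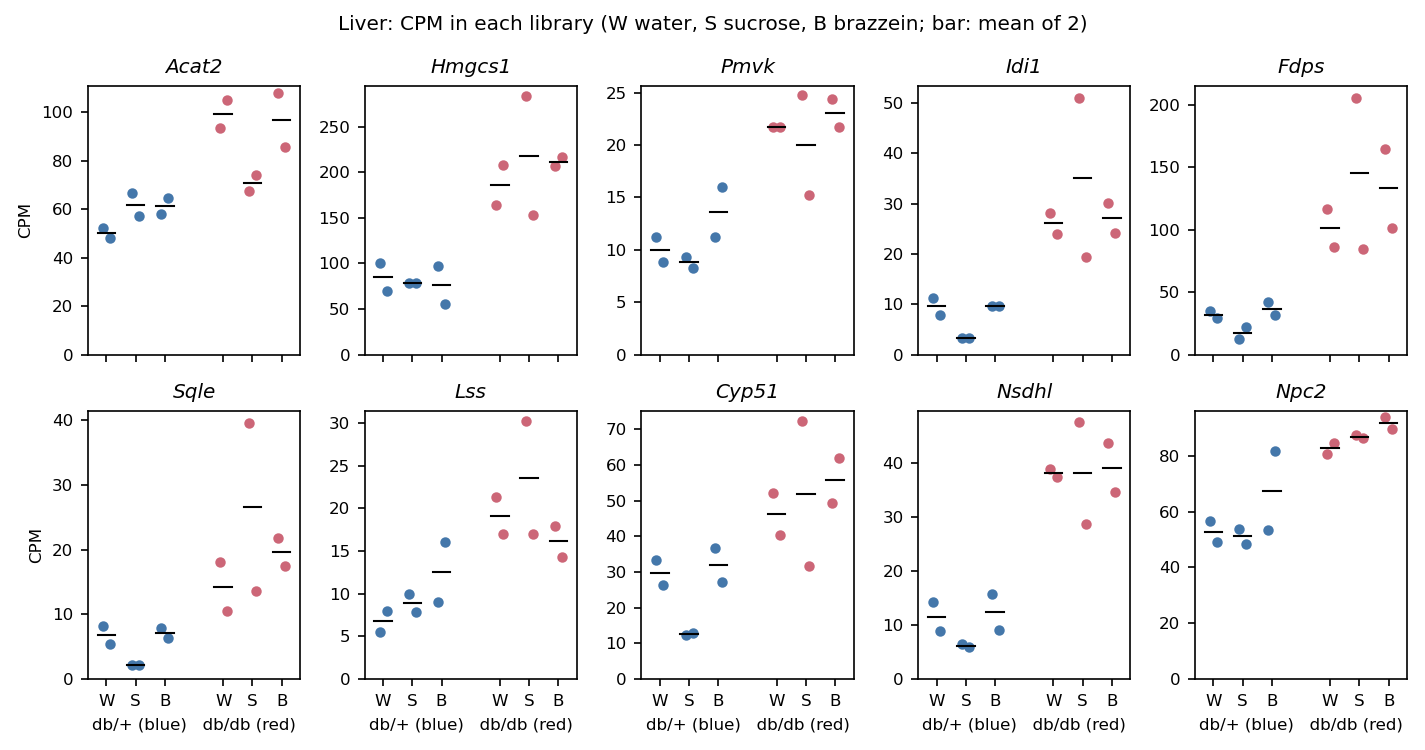
CPM in each liver library for the 10 members called higher in db/db; points are libraries on water (W), sucrose (S) and brazzein (B), and bars are means of 2. Hmgcs1, Idi1, Fdps, Sqle, Nsdhl and Acat2 show no overlap between db/+ (blue) and db/db (red), while Pmvk, Lss, Cyp51 and Npc2 do.

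Over the 3 drinks edgeR called none of the 4 regulators between genotypes, and DESeq2 called 1, Insig2. Srebf2, which encodes SREBP2, measured 33.7 and 27.5 (water), 23.4 and 29.5 (sucrose), 25.6 and 31.3 (brazzein) in db/+ livers and 36.95 and 30.8 (water), 44.7 and 31.7 (sucrose), 37.2 and 30.1 (brazzein) CPM in db/db livers. The groups overlapped, and the log2 difference was 0.31 (SE 0.14, adjusted p = 0.173). Scap, the escort of SREBP2, measured 72.4 and 80.05 (water), 69.9 and 45.3 (sucrose), 66.4 and 78.4 (brazzein) in db/+ and 66.5 and 60.9 (water), 58.1 and 19.7 (sucrose), 58.7 and 57.95 (brazzein) CPM in db/db. The low value of 1 db/db sucrose liver stood apart from the other 11, and the log2 difference was -0.38 (SE 0.25, adjusted p = 0.343). Leaving out the other sucrose library, db/db sucrose replicate 1, gave -0.70 (adjusted p = 0.0295), and leaving out the low one gave -0.17.

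Insig1, itself a target of SREBP2 and its brake, measured 92.7 and 42.4 (water), 29.1 and 27.5 (sucrose), 66.9 and 79.4 (brazzein) in db/+ livers and 79.6 and 54.2 (water), 173 and 55.005 (sucrose), 101 and 69.8 (brazzein) CPM in db/db livers. The highest value was that of the first db/db sucrose library, and the log2 difference was 0.74 (SE 0.31, adjusted p = 0.149), or 0.39 without that library. Insig2, the second brake, which in liver is known to respond to insulin and fasting, measured 50.8 and 83.3 (water), 65.3 and 73.3 (sucrose), 18.8 and 5.45 (brazzein) in db/+ and 161 and 102 (water), 46.3 and 36.5 (sucrose), 68.9 and 246 (brazzein) CPM in db/db. The lowest values were those of both db/+ brazzein livers and the highest was that of a db/db brazzein liver, with the genotypes overlapping. Its log2 difference was 1.31 (SE 0.40, adjusted p = 0.0624), and it was called without db/+ brazzein replicate 1 (1.71, adjusted p = 0.0317) or db/db brazzein replicate 1 (1.54, adjusted p = 0.0298). DESeq2 called it with all libraries (1.33, adjusted p = 0.0103).

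Of the 4 genes of sterol handling, Npc2 was called higher. NPC2 hands cholesterol to NPC1 for its exit from lysosomes. Npc2 measured 56.5 and 49.2 (water), 53.8 and 48.5 (sucrose), 53.4 and 81.6 (brazzein) in db/+ livers and 80.5 and 84.7 (water), 87.3 and 86.2 (sucrose), 93.9 and 89.5 (brazzein) CPM in db/db livers. A single db/+ brazzein liver reached the lowest db/db values, and the log2 difference was 0.62 (SE 0.11, adjusted p = 0.0116). Its partner Npc1 ran from 85.99 to 137 CPM (median 120.3) in db/+ and from 59.4 to 108 CPM (median 94.03) in db/db, with a log2 difference of the opposite sign, -0.37 (SE 0.15, adjusted p = 0.127). Stard4, a soluble carrier of sterols, ran from 0.114 to 45.4 CPM (median 30.3) and from 17.4 to 55.05 CPM (median 22.2), with a log2 difference of 0.08 (SE 0.90, adjusted p = 0.976). Its low end was 8 counts in 1 db/+ water liver, and without db/+ water replicate 1 the difference was 2.62 (adjusted p = 0.0059). Soat2, which makes cholesterol esters in hepatocytes and gut, ran from 1.57 to 19.3 CPM (median 6.895) and from 2.27 to 19.6 CPM (median 8.94), with a log2 difference of 0.46 (SE 0.66, adjusted p = 0.682).

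Libraries differed within a genotype as well as between genotypes. The db/db sucrose replicate 1 library held the highest value of the 12 livers for 17 of the 28 members and lay 0.76 above the members' medians on the log2 scale, whereas its partner, replicate 2, held the highest value of 0. The db/+ sucrose livers held the lowest value for 6 and 8 members. Markers of blood cells moved with genotype: 4 of 5 erythroid genes were called higher in db/db liver. Here and for the other markers, 7.91% of liver genes were called higher and 7.27% lower. The summed level of the erythroid genes ran from 659 to 1214 CPM in db/+ and from 1101 to 3708 in db/db. Hepatocyte markers summed to 58797 to 87422 CPM in db/+ and 63618 to 91227 in db/db, with 0 of 5 called higher and 1, Ahsg, lower. Of Kupffer cell and macrophage markers 1 of 7 was called higher (53.99 to 228 against 87.96 to 191 CPM), and of stellate cell markers 1 of 6 (141 to 256 against 178 to 267 CPM). At an unadjusted p under 0.05 in edgeR, each of these lists had 2 higher and 1 lower. The share of all liver genes at that level is not given here, so those counts have no background. DESeq2 called 1 Kupffer cell and macrophage marker higher and 1 lower, and 2 stellate cell markers higher and 0 lower. It called 10.9% of all liver genes higher. No defining marker of these 4 lists was at 0 in all livers, and their part in the members' rise was not tested.

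Per drink, each contrast compares 2 libraries with 2. On water, 1 member was called higher in db/db liver and 0 lower, with 0.971% of liver genes called higher and 0.543% lower: Acat2, with a log2 difference of 0.98 (SE 0.16, adjusted p = 0.0333). On sucrose, 4 were called higher and 0 lower, with 0.47% and 0.398% of genes. Those were Idi1 at 3.38 (SE 0.44, adjusted p = 0.0244), Sqle at 3.62 (SE 0.54, adjusted p = 0.0322), Fdps at 3.06 (SE 0.49, adjusted p = 0.03702) and Nsdhl at 2.62 (SE 0.38, adjusted p = 0.0294). On brazzein, edgeR called 0 members higher and 0 lower, with 0.925% of genes called higher and 0.651% lower. At an unadjusted p under 0.05, 8 members were higher and 0 lower on brazzein, with 8.67% and 8.8% of genes, and DESeq2 called 6 higher (Hmgcs1, Idi1, Fdps, Nsdhl, Acat2 and Insig2), with 4.62% of genes. DESeq2 also called more on water (6, with 5.43% of genes) and on sucrose (12, with 4.36%). At an unadjusted p under 0.05, edgeR gave 8 higher and 0 lower on water (10% and 9.6% of genes) and 13 higher and 1 lower, Ebp, on sucrose (8.03% and 8.28%). Both db/db livers lay above both db/+ livers for 14 members on water, 20 on sucrose and 11 on brazzein, where 28.8%, 26.9% and 21.8% of genes did, and below them for 3, 4 and 3, where 29.3%, 26.7% and 22.1% did. Median log2 differences of the members were 0.56 on water, 1.05 on sucrose and 0.40 on brazzein.

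These calls on single drinks moved with single libraries. Where the library left out belongs to the contrast, its arm has 1 library, which is assumed to vary like the other groups. The water call of Acat2 was lost without db/+ water replicate 1 or 2, db/db sucrose replicate 1 or 2, or db/db water replicate 1 or 2 (adjusted p = 0.0746 to 0.211), while its log2 difference stayed at 0.90 to 1.08. Nsdhl and Npc2 joined it without db/+ brazzein replicate 1 or 2, and Stard4 was called in its place without db/+ water replicate 1. On sucrose, none of Idi1, Sqle, Fdps and Nsdhl kept its call without db/+ sucrose replicate 1 or 2, or without db/db water replicate 1 or 2. In the fits without a db/+ sucrose library, the log2 difference of Idi1 was 3.40 in both. Only Idi1 kept it without db/db brazzein replicate 1 or 2 or db/db sucrose replicate 1. Without db/+ water replicate 1, Fdps and Sqle lost it, without db/+ water replicate 2 Fdps lost it, and without db/db sucrose replicate 2 Nsdhl lost it. Cyp51 was gained without db/+ brazzein replicate 1 or 2 or db/db sucrose replicate 2, Npc2 without either db/+ brazzein library, and Hsd17b7 without db/+ sucrose replicate 2. On brazzein, Insig2 was called without db/db brazzein replicate 1 and Idi1 without db/db sucrose replicate 2. The test of whether the genotype difference changes with the drink called 0 members in edgeR (smallest adjusted p 0.540, 0.062% of genes called). At an unadjusted p under 0.05 it gave 4 members, Idi1, Sqle, Acat2 and Insig2, with 7.29% of genes, and DESeq2 called 1, Insig2 (adjusted p = 0.0125), with 2.07% of genes. Hsd17b7 was called in that test without db/+ sucrose replicate 2 (adjusted p = 0.0257) and Stard4 without db/+ water replicate 1 (0.0489).

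Within db/+ livers the sucrose libraries were low for much of the pathway, yet no drink contrast called a member. For sucrose against water in db/+, edgeR called 0 of 28 (0.00517% of genes higher and 0.0103% lower). The log2 difference was below 0 for 21 members, with a median of -0.25, and 10 members had both sucrose livers under both water livers, where 18.3% of genes did. At an unadjusted p under 0.05, 5 were lower, with 2.87% of genes. They were Idi1 at -1.50, Sqle at -1.66, Cyp51 at -1.23, Tm7sf2 at -1.61 and Nsdhl at -0.89 on the log2 scale, with adjusted p from 0.675 to 0.785. Brazzein against sucrose, which shares the same sucrose libraries, also gave 0 calls in db/+ (0.0155% of genes higher and 0.00517% lower). There 13 members had both brazzein livers above both sucrose livers, with 16.1% of genes, and 9 were higher and 1, Insig2, lower at an unadjusted p under 0.05, with 4.18% and 4.57%. The same 5 genes had log2 differences of 1.51, 1.70, 1.32, 1.68 and 1.00 in that contrast. DESeq2 called 0 members for sucrose against water and 1 for brazzein against sucrose, Insig2, lower at -2.51 (adjusted p = 0.0322), with 1.05% of genes. Hsd17b7 was called in both contrasts without db/+ sucrose replicate 2, and Stard4 for sucrose against water without db/+ water replicate 1; each is listed near 0 in the library then left alone in its group. For brazzein against water in db/+, edgeR called 0 members (0% of genes higher and 0.00517% lower), 1 was lower at an unadjusted p under 0.05, Insig2, with 2.92% of genes, and DESeq2 called 0; Stard4 was called without db/+ water replicate 1 (8.37, adjusted p = 0.0201).

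In db/db livers no drink contrast called a member either. For sucrose against water, edgeR called 0 of 28 (0.00517% of genes higher and 0% lower), with 3 lower at an unadjusted p under 0.05, namely Ebp at -0.45, Acat2 at -0.49 and Insig2 at -1.67, where 2.07% of genes were. For brazzein against sucrose it again called 0 (0.0258% higher and 0.134% lower), with the same 3 higher at that level, Ebp at 0.55, Acat2 at 0.45 and Insig2 at 1.93, where 7.48% of genes were. The 2 contrasts share the db/db sucrose livers. For brazzein against water it called 0 (0.0155% higher and 0.103% lower), with 1 lower at that level, Mvk, where 4.82% of genes were. DESeq2 called 0 members in each of the 3 contrasts. Averaged over both genotypes, edgeR called 0 members for sucrose against water (0.0103% of genes higher, 0.00517% lower), brazzein against water (0.0103% and 0.062%) and brazzein against sucrose (0.0362% and 0.109%). At an unadjusted p under 0.05 these gave 1 lower, Tm7sf2 (2.86% of genes), 0 (4.57% higher and 4.86% lower), and 3 higher, Cyp51, Tm7sf2 and Ebp (7.28%). DESeq2 called 0, 0 and 1, which was Tm7sf2, higher on brazzein than on sucrose (1.18, adjusted p = 0.0352, with 2.53% of genes). Without db/+ sucrose replicate 2, Hsd17b7 was called in both contrasts with sucrose (-4.63 and 4.49), and without db/+ water replicate 1, Stard4 in both with water (3.99 and 4.001). The db/db sucrose replicates lay on different sides of the water livers for Idi1, which measured 51.0 and 19.4 CPM there, above and below both water libraries at 28.2 and 23.96 CPM.

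**Figure D3:**
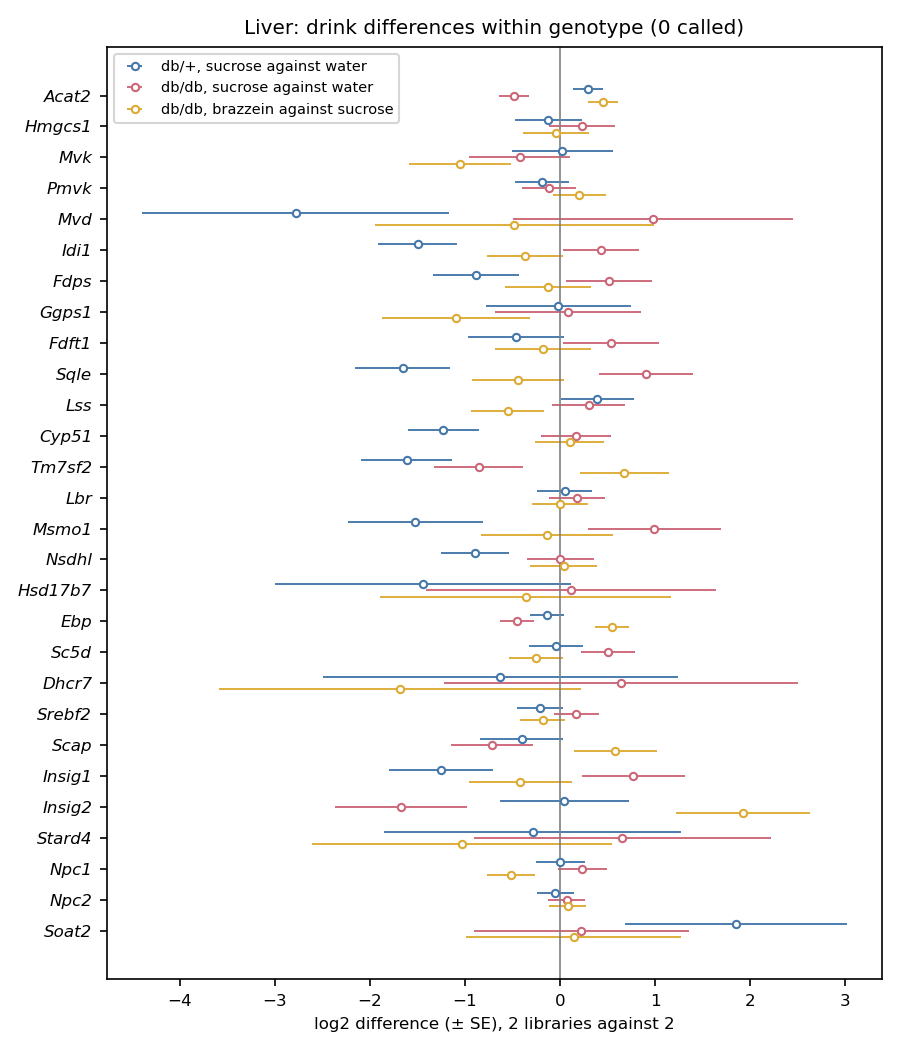
Log2 differences (± SE) for each member between 2 liver libraries and 2, for sucrose against water in db/+ and in db/db and for brazzein against sucrose in db/db; all points are open because 0 members were called. In db/+ livers Idi1, Sqle, Cyp51, Tm7sf2 and Nsdhl lie below 0 for sucrose against water, and the db/db contrasts share the sucrose libraries.

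In brain no member was called between genotypes. Of 27 members tested, edgeR called 0 higher and 0 lower in db/db over the 3 drinks (0.00846% of 23653 brain genes higher and 0% lower). At an unadjusted p under 0.05, 5 were higher and 1 lower, with 6.69% and 7.16% of genes. The 5 were Fdft1 at 0.18 (SE 0.04, adjusted p = 0.1703), Fdps at 0.29 (SE 0.08, adjusted p = 0.182), Hmgcs1 at 0.10 (SE 0.03, adjusted p = 0.1997), Hsd17b7 at 0.38 (SE 0.10, adjusted p = 0.192) and Pmvk at 0.16 (SE 0.04, adjusted p = 0.193) on the log2 scale, and the 1 was Npc1 at -0.12 (SE 0.04, adjusted p = 0.257). DESeq2 called 4 higher, Pmvk, Fdps, Fdft1 and Hsd17b7 (adjusted p = 0.0336 to 0.0453), with 1.46% of genes, and 0 lower. The median log2 difference of the 27 was 0.01, and 0 members had groups without overlap, against 0.871% of genes higher and 0.989% lower.

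Hmgcs1 ran from 238 to 264 CPM (median 252) in db/+ brains and from 246 to 288 CPM (median 275) in db/db brains, and Fdft1 from 98.2 to 115 CPM (median 103) and from 114 to 122 CPM (median 119). Fdps ran from 24.7 to 35.4 CPM (median 29.7) and from 27.3 to 44.1 CPM (median 36.6). For each of these the db/db and db/+ ranges overlapped. Srebf2 measured 236 and 242 (water), 226 and 231 (sucrose), 257 and 229 (brazzein) in db/+ brains and 243 and 209 (water), 239.7 and 239 (sucrose), 246 and 244 (brazzein) CPM in db/db brains. Apart from 1 db/db water library the db/db values lay within the db/+ range, with a log2 difference of -0.0013 (SE 0.04, adjusted p = 0.997). Insig1 measured 93.9 and 91.2 (water), 93.9 and 88.8 (sucrose), 97.7 and 88.7 (brazzein) in db/+ and 89.2 and 94.7 (water), 99.7 and 83.2 (sucrose), 107 and 83.02 (brazzein) CPM in db/db, a log2 difference of 0.01 (SE 0.07, adjusted p = 0.985). Insig2, at 46.4 and 30.4 (water), 18.5 and 28.6 (sucrose), 49.5 and 33.5 (brazzein) in db/+ and 49.2 and 40.5 (water), 45.1 and 24.98 (sucrose), 26.9 and 49.3 (brazzein) CPM in db/db, had high and low values in both genotypes, with a log2 difference of 0.22 (SE 0.24, adjusted p = 0.736). Scap measured 76.3 and 88.6 (water), 120.4 and 121 (sucrose), 119.7 and 63.5 (brazzein) in db/+ and 67.7 and 68.8 (water), 61.2 and 116 (sucrose), 64.95 and 85.5 (brazzein) CPM in db/db. High and low values occurred in both genotypes, and the log2 difference was -0.33 (SE 0.20, adjusted p = 0.511).

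Highest and lowest brain libraries differed by 1.14-fold for Npc2, 1.16-fold for Nsdhl and 1.21-fold for Hmgcs1, and by more than 2-fold only for Tm7sf2 (2.27), Insig2 (2.67), Lss (3.48) and Dhcr7 (10.6). In liver the same ratio was 1.94 for Npc2, 7.96 for Nsdhl and 5.13 for Hmgcs1. The ratios span both genotypes, so in liver they also hold the genotype difference called for these genes. The db/db water replicate 2 library held the lowest brain value for 11 members. Soat2 was listed at 0 in 11 brain libraries and at 3 counts in the twelfth, and was not tested within brain. On sucrose, 16 of 27 members had both db/db sucrose brains above both db/+ sucrose brains, with 21.5% of genes, and 3 the reverse, with 22.5%. On sucrose edgeR called 0 members (0% of genes in either direction) and 7 were higher at an unadjusted p under 0.05, with 3.95% of genes, with the smallest adjusted p for Fdps at 0.73 (SE 0.13, adjusted p = 0.236) on the log2 scale, which DESeq2 called (0.74, adjusted p = 0.000534), with 0.527% of genes. DESeq2 also called Fdps for the change of the genotype difference with the drink (adjusted p = 0.0284), with 0.711% of genes, where edgeR called 0 members (0% of genes) and 4 passed an unadjusted p under 0.05 (Hmgcs1, Fdps, Lss and Acat2), with 5.45% of genes.

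Of the remaining brain contrasts, edgeR called 0 members for genotype on water (0.00846% of genes higher, 0% lower), with 1 higher, Hsd17b7, and 0 lower at an unadjusted p under 0.05 (3.43% and 3.36% of genes), and 0 on brazzein (0% in either direction), with 3 higher (Hmgcs1, Pmvk and Fdps) and 2 lower, Mvk and Npc1 (3.98% and 4.17%). Averaged over genotypes, each drink contrast in brain called 0 members (0% of genes in either direction), with 1 member, Hsd17b7, higher at that level for sucrose against water (2.9% of genes), 2, Hmgcs1 and Cyp51, for brazzein against water (2.32%) and 0 for brazzein against sucrose (2.14% higher and 1.89% lower). Brazzein against sucrose in db/db brain called 0 (0.00423% of genes in each direction), with 2 lower at that level, Mvk and Lss (2.26%). DESeq2 called 0 members in these 6 contrasts. Neuron markers summed to 5313 to 5561 CPM in db/+ and 5240 to 5544 CPM in db/db brain, and oligodendrocyte markers to 7406 to 8492 and 6712 to 7840 CPM.

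The genotype difference itself differed between tissues. In the fit over all 24 libraries, the liver difference exceeded the brain difference for 11 members, and fell below it for 0, with 5.41% and 4.34% of 25725 genes. The 11 were the 10 genes called in liver and Sc5d. The gap was widest for Idi1 at 2.04 (SE 0.25, adjusted p = 0.000214) on the log2 scale, Sqle at 1.99 (SE 0.29, adjusted p = 0.000753), Nsdhl at 1.92 (SE 0.22, adjusted p = 9.72e-05) and Fdps at 1.91 (SE 0.29, adjusted p = 0.000848). Hmgcs1 gave 1.27 (SE 0.21, adjusted p = 0.00188) and Cyp51 1.17 (SE 0.23, adjusted p = 0.00582). The results for Lss, 1.18 (SE 0.32, adjusted p = 0.0331), and Sc5d, 0.63 (SE 0.18, adjusted p = 0.0366), were near the threshold: Lss lost its call in 12 of the 24 fits that left out 1 library (adjusted p up to 0.0767) and Sc5d in 17 (up to 0.0777). Neither of Srebf2 at 0.32 (SE 0.14, adjusted p = 0.206) and Insig1 at 0.74 (SE 0.33, adjusted p = 0.204) was called, though Insig1 was without liver db/db sucrose replicate 2 (adjusted p = 0.0337). Calls were also gained without 1 liver library for Msmo1, Hsd17b7, Mvd and Stard4, so that the count ran from 9 to 13. DESeq2 called 13, with 9.01% of genes higher.

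**Figure D4:**
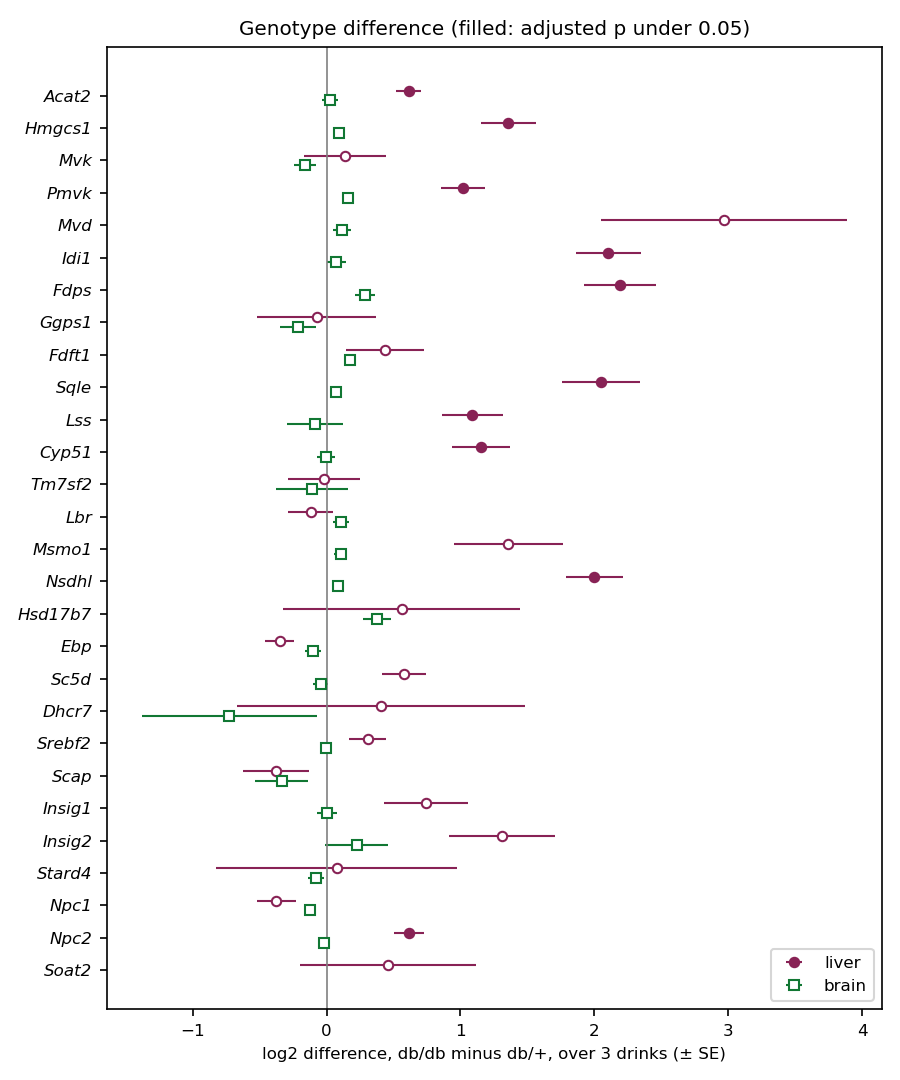
Log2 difference (± SE) of db/db against db/+ over the 3 drinks for each member in liver and brain; filled points passed an adjusted p of 0.05. In liver 10 points are filled, all to the right of 0, and in brain 0 are.

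For Nsdhl, the tissue that held more of the transcript differed between genotypes, by CPM scaled over both tissues and by FPKM. For Hmgcs1, Idi1 and Cyp51 the scales differed. In db/+ mice, liver was called higher than brain for 9 members and lower for 13, with 32.3% and 47.3% of genes, and in db/db mice higher for 15 and lower for 5, with 31.9% and 47.3%. The median over all genes in these contrasts was below 0 at -0.61 and -0.59, so member differences are relative to such a shift. Hmgcs1 passed from lower in db/+ liver, at -0.68 (SE 0.15, adjusted p = 0.000779), to higher in db/db liver, at 0.59 (SE 0.15, adjusted p = 0.00246). Idi1 went from -1.57 (SE 0.18, adjusted p = 1.55e-06) to 0.47 (SE 0.18, adjusted p = 0.0255) and Nsdhl from -0.45 (SE 0.15, adjusted p = 0.0147) to 1.48 (SE 0.16, adjusted p = 5.66e-07). Cyp51 went from -0.70 to 0.47, and was called in both genotypes. By the authors' FPKM, the median in db/db liver against db/db brain was 12.8 against 8.78 for Nsdhl. It was lower in liver for Hmgcs1 (42.9 against 55.99), Idi1 (6.86 against 10.9) and Cyp51 (9.34 against 13.9). DESeq2 did not call Idi1 or Cyp51 between tissues in db/db. Srebf2 stayed lower in liver in both, at -2.08 (SE 0.11, adjusted p = 1.37e-10) and -1.77 (SE 0.10, adjusted p = 8.43e-10), as did Mvk, Sqle, Lbr and Ggps1. Ebp, at 4.30 (SE 0.10, adjusted p = 3.09e-14) and 4.06 (SE 0.10, adjusted p = 5.47e-14), Sc5d and Tm7sf2 were higher in liver in both. By CPM, so were Fdps, at 0.86 and 2.77, Acat2, Insig2, Npc1, Npc2 and Soat2. By FPKM, the db/+ median of Fdps was 15.7 in liver and 15.8 in brain. In db/+ mice, 7 members had all livers above all brains by CPM (Acat2, Ebp, Npc1, Npc2, Sc5d, Soat2 and Tm7sf2), with 24.7% of genes, and 5 by FPKM, which lacked Acat2 and Npc2.

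Levels of different genes can be set side by side only per length, so the authors' FPKM values (fragments scaled to transcript length and library depth) were ranked. In db/+ brain the highest medians over 6 libraries were Hmgcs1 at 50.6 FPKM, Srebf2 at 36.3 and Msmo1 at 26.4, and the same 3 led in db/db brain at 55.99, 37.99 and 29.4. In db/+ liver the order was Ebp at 69.9 FPKM, Tm7sf2 at 28.2 and Sc5d at 21.2; Hmgcs1 was the sixth at 16.05 and Fdps the seventh at 15.7. In db/db liver Ebp at 62.6 FPKM was followed by Fdps at 59.7 and Hmgcs1 at 42.9. The ranges of Ebp and Fdps in db/db liver overlapped, at 45.5 to 74.4 and 47.3 to 125 FPKM, as did those of Tm7sf2 and Sc5d in db/+ liver, at 10.7 to 49.9 and 16.1 to 25.2.

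**Figure D5:**
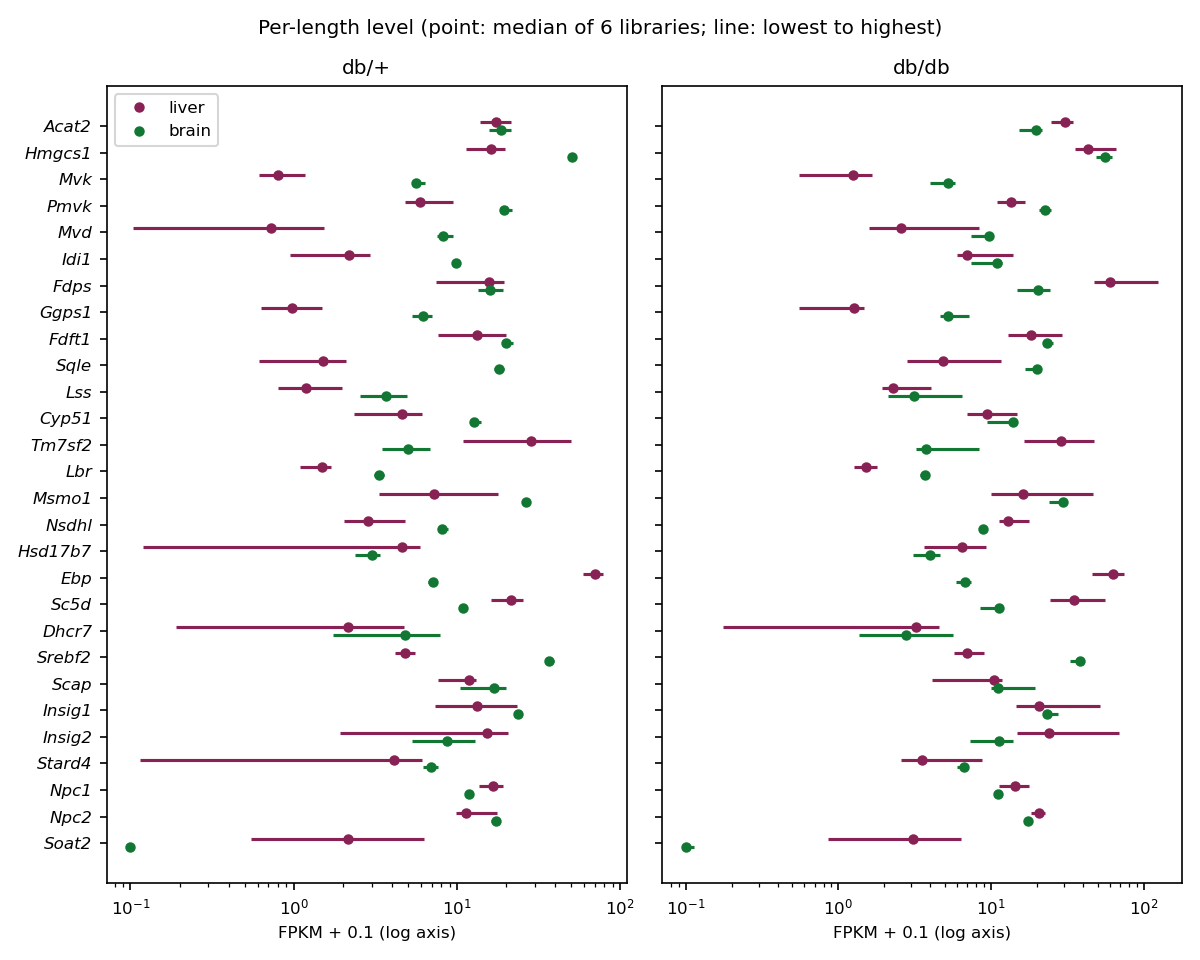
FPKM plus 0.1 on a log axis for each member in liver and brain, db/+ on the left and db/db on the right; points are medians of 6 libraries and lines run from the lowest to the highest. Ebp is highest in liver in both genotypes, and Hmgcs1 in brain.

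Genes around the pathway were counted in 7 lists. Supply of acetyl-CoA and electrons had 7 of 9 genes called higher in db/db liver and 0 lower; here and for the other lists, 7.91% of all liver genes were called higher and 7.27% lower. Cyb5r3, whose product passes electrons to sterol enzymes, measured 324 ± 56.3 CPM in db/+ and 563 ± 28.2 in db/db (SD, n = 6 each), a log2 difference of 0.81 (SE 0.08, adjusted p = 0.001402). Me1, the cytosolic malic enzyme that yields NADPH, measured 115 ± 24.2 CPM in db/+ and 336 ± 71.7 in db/db (SD, n = 6 each), a log2 difference of 1.54 (SE 0.16, adjusted p = 0.00153). Acly, which makes cytosolic acetyl-CoA, gave 1.24 (SE 0.18, adjusted p = 0.00489), and Pgd, of the pentose phosphate pathway, ran from 0.1002 to 22.7 CPM in db/+ and from 34.6 to 72.5 in db/db and gave 4.09 (SE 0.86, adjusted p = 0.0191). Fatty acid synthesis, a programme of the related factor SREBP1, had 6 of 7 called higher and 0 lower. By smallest p these began with Fasn, the fatty acid synthase, at 2.47 (SE 0.16, adjusted p = 0.000304), Thrsp at 4.93 (SE 0.34, adjusted p = 0.000396), the desaturase gene Scd1 at 2.14 (SE 0.36, adjusted p = 0.00812) and Pnpla3, at 0 to 0.0346 CPM in db/+ and 0.0753 to 0.263 in db/db (adjusted p = 0.0163).

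In the lists of sterol sensing and export, edgeR called no gene in liver. SREBP processing and sterol sensing had 0 of 11 genes called, with 2 higher and 0 lower at an unadjusted p under 0.05, and DESeq2 called 2 higher. Sterol export and LXR had 0 of 8 called, with 1 higher and 1 lower at that level, and DESeq2 called 0. DESeq2 called 10.9% of all liver genes higher. The share of liver genes at an unadjusted p is not given here, so those counts have no background. The isoprenoid branch had 1 of 11 higher, Pggt1b at 2.68 (SE 0.42, adjusted p = 0.00693), and 1 lower, Rabggta at -0.47 (SE 0.11, adjusted p = 0.0255), both subunits of prenyltransferases. Uptake, trafficking and esters had 1 of 13 higher, the lysosomal lipase gene Lipa at 0.75 (SE 0.10, adjusted p = 0.00329), and 1 lower, the sterol transporter gene Gramd1a at -0.62 (SE 0.13, adjusted p = 0.0196). That list had 3 higher and 2 lower at an unadjusted p under 0.05 in edgeR, and DESeq2 called 2 higher and 2 lower. Among bile acid and oxysterol enzymes 2 of 8 were called lower and 0 higher: Cyp7b1, the oxysterol hydroxylase, measured 76.03 ± 44.7 CPM in db/+ and 5.95 ± 2.16 in db/db (SD, n = 6 each), a log2 difference of -3.59 (SE 0.35, adjusted p = 0.00126), and Cyp27a1, the sterol 27-hydroxylase, gave -0.63 (SE 0.11, adjusted p = 0.00907). Named after their values were seen, Srebf1, which encodes SREBP1, gave 1.19 (SE 0.37, adjusted p = 0.0666) and Cyp7a1, the rate-limiting enzyme of bile acid synthesis, gave -0.62 (SE 0.28, adjusted p = 0.169); neither was called. In brain, edgeR called 0 genes of these 7 lists. At an unadjusted p under 0.05, 1 was higher and 5 lower, where 6.69% and 7.16% of all brain genes were. DESeq2 called 2 lower in brain, Erlin2 and Cyb5b, and its share of all brain genes called lower is not given here. For the lists, medians of the log2 difference in liver ran from -0.37 for bile acid enzymes to 2.64 for fatty acid synthesis, against -0.03 over all genes.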

How the data were processed

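RNA was taken up in TRIzol, selected for poly(A) and prepared with the NEBNext Ultra II RNA kit, per the labels' protocols. The submitters' processing notes name bcl2fastq and the build GRCm39; for aligner, counter and annotation, the answer is "not given in the sources used here". The kit as named is not the directional version and no source states strand counting, so antisense and overlapping genes cannot be told apart. Besides Fdps and Fdft1, this touches Scap (13.2% of exon bases), Hmgcs1 (12.1%), Tm7sf2 (12.1%), Lbr (9.24%) and Idi1 (9.2%). Ggps1, Npc1, Cyp51 and Lss share smaller parts of their exons with other genes. Each library has a table of expected counts per gene, which the authors made from their reads and deposited as whole numbers with no scaling. The series table of FPKM values, deposited by the authors and scaled by them to length and depth, served only to compare levels between genes; its 24 columns of coverage were not used. The headers of the count tables of both db/+ brazzein livers name the other replicate, and each table correlated better with the FPKM column of the other replicate (0.907 against 0.886, and 0.908 against 0.828, log2 values over genes). This changes no group.

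Counts were scaled by TMM, filtered by edgeR's filterByExpr within each tissue's 6 groups of 2, and tested with edgeR 4.0.16 (quasi-likelihood, R 4.3.3, limma 3.58.1). Contrasts of tissues used 1 fit over all 24 libraries, with liver and brain libraries taken as independent. Benjamini-Hochberg adjustment ran over all genes tested, with a threshold of 0.05. The edgeR test of genotype over drinks was also run on simulated counts, with means and spreads taken from the fit of each tissue. All members are named, with values in every library for those called for genotype in that tissue and for Srebf2, Insig1, Insig2 and Scap, and of each related list up to 4 called genes by smallest p. The members and lists were chosen with earlier results of these data known. A gene counts as listed near 0 in a library where it is under 0.1 of its tissue median and the median count is at least 100; logs for plots used CPM plus 0.1. Alternatives were DESeq2 1.42.0, its size factors within edgeR, no filter, a replicate block, leaving out each library, and, chosen after seeing the data, leaving out members listed near 0. Replicate numbers were not treated as pairs.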

Additional observations from a re-analysis of the deposited data

Results flagged for a closer look

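Single libraries stood apart from the other 5 of their tissue and genotype by Dixon's test in 13 of 110 groups of 6, where chance gives about 5% of groups. In brain, db/db water replicate 2 was low for 4 members: Cyp51 at 54.7 CPM against 71.4 to 82.98 in the others, Idi1 at 30.97 against 41.9 to 48.3, Sc5d at 59.7 against 73.6 to 79.3, and Srebf2 at 209.0 against 239.0 to 246. Ggps1 was high in brain db/db sucrose replicate 2, at 39.98 CPM against 24.8 to 29.6. In db/+ liver, Hsd17b7 measured 0.0519 CPM in sucrose replicate 1 against 26.6 to 41.4, and Stard4 0.114 in water replicate 2 against 15.1 to 45.4. Brazzein replicate 2 was low for Lbr, at 4.29 against 6.07 to 6.88, and high for Npc2, at 81.6 against 48.5 to 56.5. Scap was low in both genotypes in sucrose replicate 2, at 45.3 CPM against 66.4 to 80.05 in db/+ and at 19.7 against 57.95 to 66.5 in db/db. Pmvk was low in that db/db library too, at 15.2 against 21.7 to 24.8, and Ggps1 in db/db brazzein replicate 1, at 0.606 against 4.497 to 5.84.

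The genotype difference was larger in liver than in brain, by the interaction test in edgeR, for 11 members. The log2 gaps were 2.04 for Idi1, 1.99 for Sqle, 1.92 for Nsdhl, 1.91 for Fdps, 1.27 for Hmgcs1, 1.18 for Lss, 1.17 for Cyp51, 0.87 for Pmvk, 0.64 for Npc2, 0.63 for Sc5d and 0.59 for Acat2.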

How the results depend on the processing

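The count of 10 members called higher in db/db liver over drinks was 14 with DESeq2 and 11 with a replicate block. It was 10 to 13 when 1 library was left out. Taking out the members listed near 0 left 10, which was fixed in advance. No fit was repeated for it, and Dhcr7, Mvd, Hsd17b7, Insig2 and Stard4 are not among the 10. For the 11 members whose genotype difference was larger in liver than in brain, leaving out 1 library gave 9 to 13. Counts per drink depended more on the processing. Genotype on water, with 1 call, gave 6 with DESeq2, 0 with no filter on low counts and 0 to 3 without 1 library. Genotype on sucrose, with 4 calls, gave 12 with DESeq2 and 0 to 6 without 1 library. Genotype on brazzein, with 0 calls, gave 6 with DESeq2 and 0 to 1 without 1 library. The same range of 0 to 1 held for each of the 3 drink contrasts over genotypes in liver, for each of those in db/+ and for genotype by drink, while those in db/db gave 0. DESeq2 gave 1 call each for liver brazzein against sucrose over genotypes and in db/+, liver genotype by drink, brain genotype on sucrose and brain genotype by drink, and 4 for brain genotype over drinks. Leaving out 1 library gave 0 in every brain contrast, 21 to 23 for liver against brain in db/+ and 17 to 22 in db/db. The cause of these moves was not tested.

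Within each tissue, deviations of same-numbered libraries correlated between groups at -0.11 to 0.09 in liver and -0.04 to 0.04 in brain. In either tissue 0 of 15 pairs were over 0.1. Whether liver and brain libraries of the same number came from the same mouse was not tested. With the replicate block, genotype on brazzein gave 1 call, on sucrose 3 and on water 1, and the 11 interaction calls stayed 11 in number. Single genes crossed the threshold under the block in both directions: Sc5d gained a call over drinks (adjusted p = 0.0218), and Acat2 on water (0.0596), Fdps on sucrose (0.0549) and Lss between tissues (0.0546) lost theirs in edgeR. Over drinks, Sc5d was called in 6 of the 16 alternative settings, so its gain was not particular to the block.

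Signs turned for values next to 0. Tm7sf2 in liver, at -0.02, was 0.0040 with DESeq2. In brain, Srebf2, at -0.0013, was 0.0012 with DESeq2, 0.0023 with no filter, and -0.0416 to 0.0331 without 1 library. Insig1, at 0.0061, was -0.0602 to 0.0620 without 1 library. Members listed near 0 in single livers, Mvd, Dhcr7, Stard4, Hsd17b7 and Insig2, had library values of 1 to 334 counts there, against medians of 230 to 4506 counts over the livers.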
